A study of Mus musculus with 4 samples.

Results

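The genes described here are S100a8, S100a9, Ngp, Camp, Ltf, Lcn2, Retnlg, Wfdc21 and Mmp8, which encode calprotectin and secreted or granule proteins of neutrophils. They were taken by symbol, as 9 of the 32285 genes of each of 4 scRNA-Seq count matrices. The libraries were made from fracture callus and from trabecular bone of 20-week-old male C57BL/6J mice. One group of each tissue carried prednisolone (GC) at 6.25 mg/kg/d and the other a placebo (control), with collection at week 2. The labels describe a subcutaneous slow-release pellet for all libraries, whereas the study describes daily injection for its fracture model. Marrow was flushed out, the bone pieces were crushed, and both fractions were digested with collagenase II, dispase II and DNase I and combined, so a library holds marrow together with bone or callus cells. How many mice went into each library is not given in the sources used here, and each tissue and treatment has 1 library. No comparison between libraries could therefore be tested, no p-value is given, and each interval is a 95% interval for counting error only.

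S100a8 and S100a9 proteins pair to form calprotectin, a calcium-binding complex of the neutrophil cytosol that withholds zinc and manganese from microbes and can signal through the receptor Tlr4. Granules are filled in order as a neutrophil matures in the marrow: azurophil granules in promyelocytes, specific granules next, and gelatinase granules last. Ngp, Camp (the cathelicidin precursor), Ltf (lactoferrin, which binds iron) and Lcn2 (lipocalin 2, which binds bacterial siderophores) are cargo of the specific granules, and Mmp8 is the neutrophil collagenase. Retnlg is a small secreted relative of resistin, and Wfdc21 is a small secreted protein with a whey acidic protein domain.

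All 9 are protein-coding genes, and 5 of them lie in groups on the GRCm38.p6 assembly. S100a8 (chr3:90668978-90670035, plus strand) and S100a9 (chr3:90692632-90695721, minus strand) are 22.6 kb apart and point towards each other. Camp (chr9:109847379-109849617, minus strand), Ngp (chr9:110419747-110423012, plus strand) and Ltf (chr9:111019271-111042767, plus strand) follow each other on chromosome 9, with 570.1 kb between Camp and Ngp and 596.3 kb between Ngp and Ltf. Mmp8 (chr9:7558456-7568485, plus strand) is far from these on the same chromosome. Lcn2 (chr2:32384633-32388252, minus strand), Retnlg (chr16:48872621-48874496, plus strand) and Wfdc21 (chr11:83746940-83752642, plus strand) stand alone. The transcripts with the most exons have 3 in S100a8, S100a9 and Wfdc21 and 17 in Ltf.

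The 250 bases before the RefSeq start site were read for 8 members, since Wfdc21 had no entry. TTGCNNAA, a spelling of the C/EBP site (TTNNGCAA on the other strand), was found in 6 of these 8 windows and in 9.56% of all 32851. GAGGAA, the core of ETS sites such as that of PU.1, was found on either strand in 4 of 8 and in 23.25%. TATAAA, on either strand, was found in S100a8 only and in 12.37% of all windows. The core hexamer of glucocorticoid receptor elements, AGAACA, was on neither strand in any of the 8 windows and in 16.08% of all. A looser C/EBP spelling, TTNNGNAA, whose other strand reads TTNCNNAA and which overlaps the stricter spelling, was in 7 of 8 and in 36.85%. The spellings were settled after several had been counted, and a match or its absence describes these letters alone. The sequences below are the stretches of these windows that lie before every annotated start of the gene, shown for the calprotectin pair, for 1 gene highest at the immature stage (Ngp) and for the 2 highest at the mature stage of trabecular bone (Retnlg and Mmp8). They run 5′ to 3′ on the strand of the gene, with TTGCNNAA and GAGGAA matches of either strand in capitals, at chr3:90668821-90668977 (S100a8, plus), chr3:90695722-90695971 (S100a9, minus), chr9:110419558-110419746 (Ngp, plus), chr16:48872358-48872607 (Retnlg, plus) and chr9:7558179-7558428 (Mmp8, plus).
S100a8: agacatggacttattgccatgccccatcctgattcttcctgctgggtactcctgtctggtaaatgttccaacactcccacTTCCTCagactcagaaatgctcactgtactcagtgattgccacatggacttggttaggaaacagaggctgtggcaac
S100a9: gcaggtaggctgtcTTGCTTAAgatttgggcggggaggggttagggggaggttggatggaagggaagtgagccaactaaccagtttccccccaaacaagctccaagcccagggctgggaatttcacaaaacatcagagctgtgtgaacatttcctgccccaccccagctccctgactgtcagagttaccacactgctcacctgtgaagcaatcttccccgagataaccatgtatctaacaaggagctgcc
Ngp: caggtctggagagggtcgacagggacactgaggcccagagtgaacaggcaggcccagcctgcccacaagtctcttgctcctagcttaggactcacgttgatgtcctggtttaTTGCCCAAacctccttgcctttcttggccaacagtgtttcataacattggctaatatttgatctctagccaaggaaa
Retnlg: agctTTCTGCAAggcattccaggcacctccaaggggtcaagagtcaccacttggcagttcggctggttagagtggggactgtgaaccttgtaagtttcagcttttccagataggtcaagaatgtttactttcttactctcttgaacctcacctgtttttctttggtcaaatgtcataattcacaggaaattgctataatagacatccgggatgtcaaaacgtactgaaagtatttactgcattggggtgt
Mmp8: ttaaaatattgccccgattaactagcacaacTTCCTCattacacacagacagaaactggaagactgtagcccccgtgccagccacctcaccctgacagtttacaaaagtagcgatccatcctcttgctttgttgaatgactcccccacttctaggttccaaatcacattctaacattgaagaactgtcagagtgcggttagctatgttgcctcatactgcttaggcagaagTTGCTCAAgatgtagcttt

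The files held between 41239842 and 95852254 UMIs per library, and 22024 cells were kept, with a median of 3274 to 6300 UMIs per cell. Any pair of libraries shared 6 to 11 cell barcodes. The GC callus matrix listed only 7762 barcodes and so holds no empty droplets. Cells were clustered within each tissue without the 9 members, and clusters were named from marker lists alone, so that promyelocyte, immature neutrophil and mature neutrophil below mean cells like those types. Chondrocytes were the largest class of callus, with 36.9% of control and 40.0% of GC cells, whereas the trabecular bone libraries held few stromal or skeletal progenitor cells, 17 and 45, and were mostly marrow cells. Neutrophils of both stages made up 25.4% of control and 20.2% of GC callus cells, and 65.6% and 68.1% in trabecular bone. Of these neutrophils, immature cells were 7.51% (6.30 to 8.87) with control and 12.6% (10.9 to 14.5) with GC in callus, and 28.5% (26.8 to 30.4) and 17.8% (16.5 to 19.2) in trabecular bone. Libraries separated within the mature stage. In trabecular bone, cluster 0 held 1080 control and 52 GC cells and cluster 2 held 700 and 86, whereas clusters 3, 4, 5 and 6 held 737, 586, 570 and 543 GC cells and at most 10 control cells each. In callus, cluster 3 held 1156 control and 31 GC cells and cluster 0 held 420 and 1185. Clusters 4 and 6 of trabecular bone were named mature by 2 and 1 of their 10 leading genes, but carried 17 of the 18 immature markers. Clusters 1 (534 control and 404 GC cells, named immature) and 2 (named mature) had as many immature as mature markers among those genes, 0 and 1 of each, and were placed by the mean level of the marker lists. Since clusters 4 and 6 held mostly GC cells, the lower immature share of GC trabecular bone neutrophils rests on naming them mature. Cluster 11 of callus was named immature by 5 of its 10 leading genes, with 1 mature marker among them, but carried 25 of the 29 mature markers.

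The 9 members together took 23.4% of all UMIs of the control and 19.7% of those of the GC library in trabecular bone, against 0.266% and 0.366% in callus. In immature neutrophils of trabecular bone the share was 47.1% in control and 43.5% in GC. Mature neutrophils of trabecular bone gave 38.5% and 33.1%, and promyelocytes 12.0% and 8.36%. Callus neutrophils gave less: 26.4% in control and 23.5% in GC immature cells, and 4.97% and 4.96% in mature cells. S100a8 and S100a9 alone made up most of each share, as the plot of UMI shares shows. Promyelocytes and neutrophils held 98.6% of the members' UMIs in trabecular bone and 94.5% in callus.

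**Figure D1:**
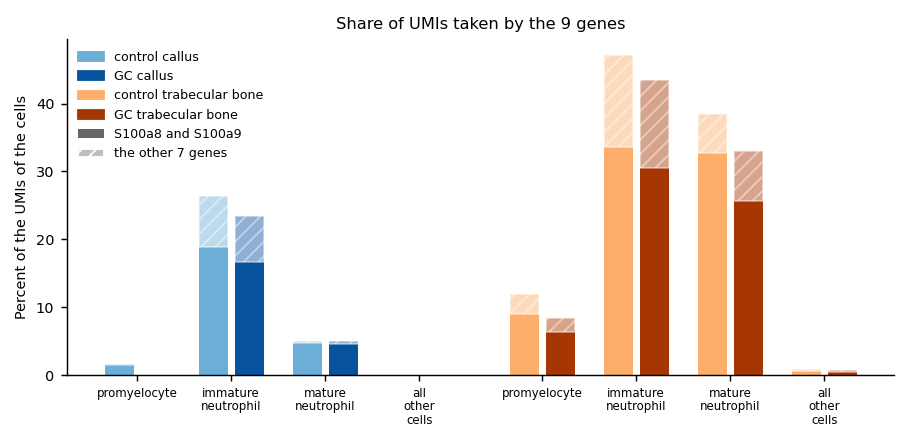
Percent of the UMIs of the cells of each stage (y axis) taken by S100a8 and S100a9 (solid) and by the other 7 genes (hatched), for the 4 libraries, with callus on the left and trabecular bone on the right. The bars of immature neutrophils are the highest in both tissues, 26.4% and 23.5% in callus and 47.1% and 43.5% in trabecular bone, and mature neutrophils stay near them in trabecular bone only. GC callus promyelocytes (8 cells) are not drawn.

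The calprotectin genes were already read in promyelocytes and stayed high in mature neutrophils. In trabecular bone S100a8 stood at 45825 CPM (UMIs of the gene per 1000000 UMIs of the cells) in control and 31939 CPM in GC promyelocytes, at 167922 and 152606 CPM in immature neutrophils, and at 157242 and 130997 CPM in mature neutrophils. S100a9 stood at 44108 and 31662, 167516 and 152693, and 169244 and 125918 CPM in the same order. The immature and mature levels of trabecular bone were thus close: over both libraries together S100a8 had 161017 and 142409 CPM and S100a9 160833 and 144758 CPM. In callus the stages were further apart: S100a8 had 90007 CPM in control and 77831 CPM in GC immature neutrophils, and 23569 and 21961 CPM in mature neutrophils. S100a9 had 98808 and 88754 CPM in immature and 23204 and 24104 CPM in mature cells of callus. The cell medians in callus were 205 S100a8 UMIs in a control and 153.5 in a GC immature neutrophil, against 23 and 17 in a mature one. The 2 genes followed each other across cells of every kind. Over 47 class and library groups the levels of S100a8 and S100a9 had a Pearson correlation of 0.998, a description across groups that share libraries and depth.

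Ngp, Camp and Ltf marked the immature stage. In callus, 89.5% of Ngp, 87.4% of Camp and 88.4% of Ltf UMIs lay in immature neutrophils, which were 128 of 6710 control and 176 of 6890 GC cells. Ngp had 20449 CPM in control and 23983 CPM in GC immature callus neutrophils, and 55.5 and 45.9 CPM in mature ones. Camp had 11844 and 13644 CPM in immature cells, against 8 UMIs (3.83 CPM) in 1576 control and 14 UMIs (9.88 CPM) in 1216 GC mature cells. Ltf had 2641 and 2695 CPM in immature cells, against 8 and 11 UMIs in mature cells. The immature class of callus was uneven: its median cell had 3 Camp UMIs in control (quartiles 0 and 25) and 2 in GC (0 and 21.5), and 0 Ltf UMIs in both (upper quartiles 7.25 and 9), so that a minority of its cells carried these levels. The few UMIs of mature cells lay within a few CPM of the levels in all other callus cells, which were 2.34 and 16.5 CPM for Camp and 1.05 and 3.61 CPM for Ltf. In trabecular bone the step between the pooled stages was smaller, but it depended on which clusters were named mature. Control Camp, for example, had 5577 CPM in cluster 2 and 227 CPM in cluster 0, both named mature. Ngp fell from 52396 CPM in control immature to 7874 CPM in control mature neutrophils, and from 48766 to 11219 CPM in GC. Camp went from 45615 to 2962 CPM in control and from 41523 to 3426 CPM in GC. Ltf went from 9721 to 1315 CPM in control and from 6769 to 1441 CPM in GC. Summed over the class, promyelocytes had 17076 CPM of Camp in control and 10038 CPM in GC. Ngp had 8245 and 5739 CPM there, and Ltf only 235 and 111 CPM. A minority of cells carried the Camp level: the median was 8.5 UMIs in control (quartiles 1 and 513) and 3 in GC (0 and 124.75). For Ngp the median was 9.5 and 4.5 UMIs. Empty droplets of trabecular bone had 17454 CPM of Camp in control and 6720 CPM in GC, and the part of free RNA was not tested.

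Lcn2 and Wfdc21 were highest in immature cells and stayed in mature ones. Lcn2 had 16516 CPM in control and 21404 CPM in GC immature neutrophils of trabecular bone, and 7141 and 12505 CPM in mature ones. In callus it had 5097 and 4445 CPM in immature and 313 and 473 CPM in mature cells. Wfdc21 had 6883 and 6424 CPM in immature and 4741 and 5123 CPM in mature neutrophils of trabecular bone. In callus Wfdc21 had 3225 and 3596 CPM in immature and 327 and 520 CPM in mature cells. Wfdc21 was also read early, with 2189 CPM in control and 1867 CPM in GC promyelocytes of trabecular bone.

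Retnlg and Mmp8 came last in trabecular bone and not in callus. In trabecular bone Retnlg had 3437 CPM in control and 3960 CPM in GC immature neutrophils, and 32021 and 34362 CPM in mature ones, and 90.7% of its UMIs lay in mature cells. Mmp8 had 901 and 1111 CPM in immature and 2332 and 5602 CPM in mature neutrophils there, with 82.4% of its UMIs in mature cells. In callus the order turned: Retnlg had 30336 CPM in control and 18814 CPM in GC immature neutrophils, and 2178 and 2356 CPM in mature ones. Mmp8 had 1171 and 1044 CPM in immature and 64.6 and 79.8 CPM in mature callus cells. All 9 members were thus highest in the class of callus named immature (cluster 11, with the mature markers given above), and, over both libraries together, 7 of 9 in the immature class of trabecular bone. The share of all genes that were highest in these classes was not counted. The immature class of callus led with Krt83, Cd177, Krt81 and Ifitm6, and its control Retnlg level lay near that of the mature control cells of trabecular bone.

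**Figure D2:**
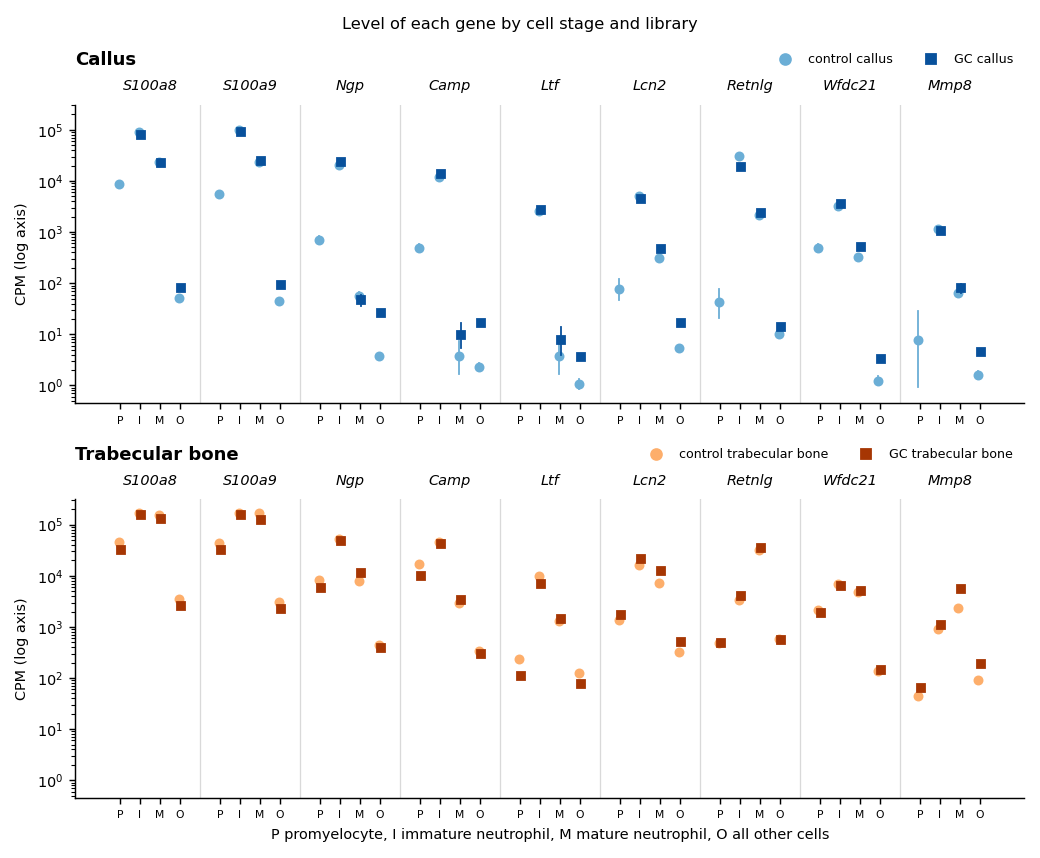
Level of each gene (CPM, log axis) in promyelocytes (P), immature neutrophils (I), mature neutrophils (M) and all other cells (O) of callus (top) and trabecular bone (bottom), with 1 point per library and a vertical line for its counting interval. Retnlg and Mmp8 rise from I to M in both trabecular bone libraries and the control S100a9 points are level (167516 and 169244 CPM), whereas every gene falls from I to M in callus. No point is drawn at 0 UMIs or for the 8 GC callus promyelocytes.

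With GC, all 9 members were higher over all callus cells, from 1.16-fold for Retnlg to 2.44-fold for Camp. Ngp went from 99.9 CPM in control to 237 CPM in GC callus (2.37-fold, 2.30 to 2.43) and Camp from 57.5 to 141 CPM (2.44-fold, 2.35 to 2.53). Ltf went from 13.1 to 27.02 CPM (2.07-fold, 1.91 to 2.24), Lcn2 from 36.7 to 66.9 CPM and Wfdc21 from 25.9 to 51.3 CPM. S100a8 and S100a9 differed less, from 1101 to 1361 CPM (1.24-fold, 1.22 to 1.25) and from 1116 to 1521 CPM (1.36-fold, 1.35 to 1.38). A log2 ratio with 5 CPM added to both levels damps the ratios of low genes. By it, Ngp and Camp were past 2-fold higher and 0 members past 2-fold lower, beside 0.238% of the 15107 genes with at least 50 UMIs higher and 0.285% lower. The median log2 ratio of the members was 0.79, beside 0.026 over all genes. Immature neutrophils held 0.453% of the UMIs of control and 0.864% of those of GC callus, and mature neutrophils 2.62% and 2.57%. Chondrocytes, the class with most of the UMIs, had a median of 23707 UMIs per cell in control and 11798 in GC. With every cell thinned to 1000 UMIs, S100a8 (log2 ratio -0.33), S100a9 (-0.17) and Retnlg (-0.17) turned lower in GC, and no member was past 2-fold.

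Within immature callus neutrophils the members moved little, apart from Retnlg. Ngp (1.17-fold, 1.14 to 1.21) and Camp (1.15-fold, 1.108 to 1.198) were higher in GC, although the median cell had 21.5 Ngp UMIs in control and 20 in GC, and 3 and 2 Camp UMIs. Retnlg was lower at 0.620-fold (0.603 to 0.638), with a median of 75.5 UMIs in a control and 46.5 in a GC cell. S100a8 (0.865-fold), S100a9 (0.898-fold), Lcn2 (0.872-fold) and Mmp8 (0.891-fold) were lower by little, while Ltf was at 1.02-fold with an interval of 0.938 to 1.11. The direction held under all 19 alternatives for Ngp, Camp and Retnlg and turned under at least 1 for each of the other 6. No member was past 2-fold in either direction, beside 4.23% of 2058 genes lower and 7.77% higher. The same cells differed in genes of other kinds: Mki67, a proliferation marker, went from 24.9 to 155 CPM (9 and 74 UMIs) and Pcna, a replication clamp, from 19.4 to 96.4 CPM (7 and 46 UMIs). Of 8 listed cell-cycle genes, only these 2 were over the minimum count. Of 6 genes that neutrophils should lack, Hbb-bs (hemoglobin) went from 58.1 to 235 CPM, Col2a1 (cartilage collagen) went from 1794 to 534 CPM and Cd3e was at 0 UMIs in both libraries. Together these 6 had 2292 CPM in control and 1128 CPM in GC, and their part in the members' values was not tested.

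In mature callus neutrophils, Wfdc21 (1.59-fold, 1.43 to 1.77) and Lcn2 (1.51-fold, 1.36 to 1.69) were higher in GC. The other members over the minimum count, S100a8 (0.932-fold), S100a9 (1.04-fold), Ngp (0.826-fold), Retnlg (1.08-fold) and Mmp8 (1.23-fold), were nearer to control, and Ngp kept its direction under 16 and Retnlg under 19 of 20 alternatives. None of the 7 was past 2-fold, beside 3.5% of 4852 genes lower and 4.53% higher. The libraries filled different clusters of this class, and within them the ratios differed from the pooled ones. Ngp was higher in GC in cluster 0 (2.40-fold, 1.13 to 5.87) and in cluster 3 (5.57-fold, 3.01 to 9.60), against 0.826-fold pooled. In cluster 0, Lcn2 was 2.01-fold (1.65 to 2.46) and Wfdc21 1.85-fold (1.55 to 2.23) higher, with S100a8 at 0.978-fold, S100a9 at 1.17-fold and Retnlg at 1.17-fold. In cluster 3, with 31 GC cells, S100a8 was 1.72-fold, S100a9 1.93-fold, Retnlg 3.27-fold, Lcn2 3.24-fold and Wfdc21 2.84-fold. The 6 genes that neutrophils should lack summed to 4081 CPM in control and 4873 CPM in GC, with Hbb-bs at 588 and 2945 CPM, Col2a1 at 2757 and 1156 CPM and Cd3e at 0. Their part was not tested.

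Over all trabecular bone cells the members moved both ways, and Mmp8 moved most. Mmp8 went from 906 CPM in control to 2118 CPM in GC (2.34-fold, 2.31 to 2.37). Lcn2 went from 6225 to 8306 CPM (1.33-fold, 1.33 to 1.34) and Retnlg from 9996 to 12235 CPM (1.22-fold, 1.22 to 1.23). Ltf went from 2789 to 1734 CPM (0.622-fold, 0.615 to 0.628), Camp from 13379 to 9627 CPM (0.720-fold) and Ngp from 15715 to 13139 CPM (0.836-fold). S100a8 went from 89429 to 74319 CPM (0.831-fold) and S100a9 from 92390 to 72507 CPM (0.785-fold). Only Mmp8 was past 2-fold higher and 0 members were past 2-fold lower, beside 0.444% of 12152 genes higher and 0.568% lower. Immature neutrophils held 24.2% of the UMIs in control and 18.03% in GC, and mature ones 27.8% and 32.8%. These shares depend on which clusters were named mature, as given above.

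Promyelocytes of trabecular bone (cluster 11, 144 control and 178 GC cells) had less S100a8, S100a9, Camp, Ngp and Ltf in GC, and more Lcn2. Camp was 0.588-fold (0.580 to 0.596), S100a8 0.697-fold, S100a9 0.718-fold and Ngp 0.696-fold of control. Ltf went from 235 to 111 CPM (0.471-fold, 0.414 to 0.536) and was the 1 member past 2-fold lower, beside 0.346% of 6647 genes, with 0 past 2-fold higher, beside 0.346%. Lcn2 (1.24-fold, 1.19 to 1.29) and Mmp8 (1.46-fold, 1.16 to 1.84, on 121 and 217 UMIs) were higher in GC. The cells were uneven, with the members at a median of 5.16% of a control cell's UMIs (quartiles 0.662 and 19.2) and 3.08% of a GC cell's (0.546 and 10.3). The 6 genes that neutrophils should lack summed to 2021 CPM in control and 985 CPM in GC, nearly all of it Hbb-bs, and their part was not tested. The Ltf values lay within the range of classes outside the lineage, such as erythroid cells (120 CPM in control and 41.1 CPM in GC), T, NK or innate lymphoid cells (411 and 104 CPM) and mast cells or basophils (46.6 and 550 CPM). Empty droplets also had less in GC, from 2274 to 947 CPM for Ltf, from 125471 to 54887 CPM for S100a8 and from 17454 to 6720 CPM for Camp, and the part of free RNA was not tested.

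Immature neutrophils of trabecular bone (clusters 1 and 10, each with cells of both libraries) differed little between GC and control. Ltf was 0.696-fold (0.688 to 0.704), Lcn2 1.30-fold (1.29 to 1.31), Mmp8 1.23-fold (1.19 to 1.27) and Retnlg 1.15-fold (1.13 to 1.17), and the other 5 were between 0.909-fold and 0.933-fold. No member was past 2-fold, beside 0.237% of 7579 genes lower and 0.317% higher. Cluster 10, which led with Fcnb, Orm1 and Cebpe and so with early genes, had Mmp8 at 20.98 CPM in control and 186 CPM in GC (8.86-fold, 6.90 to 11.5) and Retnlg at 466 and 1410 CPM (3.03-fold, 2.86 to 3.21). Erythroid cells, which should lack Mmp8, had 38.0 and 63.6 CPM, so the control value of cluster 10 lay under these and the GC value above them. Stromal or skeletal progenitors, also outside the lineage, had 326 CPM of Mmp8 over both libraries together. The GC value of cluster 10 was thus not above the range of such classes. For Retnlg such classes ranged from 256 CPM (stromal or skeletal progenitors) to 2506 CPM (T, NK or innate lymphoid cells) in control and from 368 CPM (hematopoietic stem or progenitor cells) to 2418 CPM (stromal or skeletal progenitors) in GC, so both Retnlg values of cluster 10 lay within background. In cluster 1 Mmp8 was 1.24-fold and Retnlg 1.10-fold higher. These ratios depended on which clusters were named immature: Mmp8 was past 2-fold higher under 7 and Retnlg under 6 of 20 alternatives, and with stages set by the mean level of the marker lists their log2 ratios were 1.72 and 1.76 in place of 0.30 and 0.20. Retnlg turned lower under 3 of the 20, down to -0.51 with all 4 libraries clustered together. The genes that neutrophils should lack went from 1415 to 4176 CPM in the immature class, with Hbb-bs at 1409 and 4166 CPM, and their part was not tested.

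In mature neutrophils of trabecular bone Mmp8 went from 2332 to 5602 CPM (2.40-fold, 2.37 to 2.44) and Lcn2 from 7141 to 12505 CPM (1.75-fold, 1.74 to 1.77). The median mature cell had 8 Mmp8 UMIs in control and 25 in GC. Thinned to 1000 UMIs per cell, 68.7% (66.5 to 70.9) of 1767 control and 92.9% (91.8 to 93.9) of 2543 GC mature cells had an Mmp8 UMI, against 3.82% and 3.94% of erythroid cells. Unthinned, the shares were 86.6% and 96.7% of mature cells, with median depths of 5097 and 4291 UMIs, and 16.8% and 21.3% of erythroid cells, at 6428 and 5838 UMIs. S100a9 was 0.744-fold (0.742 to 0.746) and S100a8 0.833-fold (0.831 to 0.835) of control, and the other members were between 1.07-fold and 1.42-fold. Only Mmp8 was past 2-fold higher, beside 2.09% of 7600 genes, and 0 members were past 2-fold lower, beside 0.803%. The median log2 ratio of all genes was 0.23 in this class, above the members' median of 0.13 and above the ratios of Camp (0.21), Ltf (0.13), Wfdc21 (0.11) and Retnlg (0.10). With libraries scaled by the median ratio of genes, all of these 4 turned lower in GC, among them Retnlg (-0.23) and Wfdc21 (-0.22), and Mmp8 was no longer past 2-fold (0.93). The genes that neutrophils should lack went from 1860 to 3088 CPM, with Hbb-bs at 1853 and 3079 CPM and Acan at 0 in both, and their part was not tested.

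**Figure D3:**
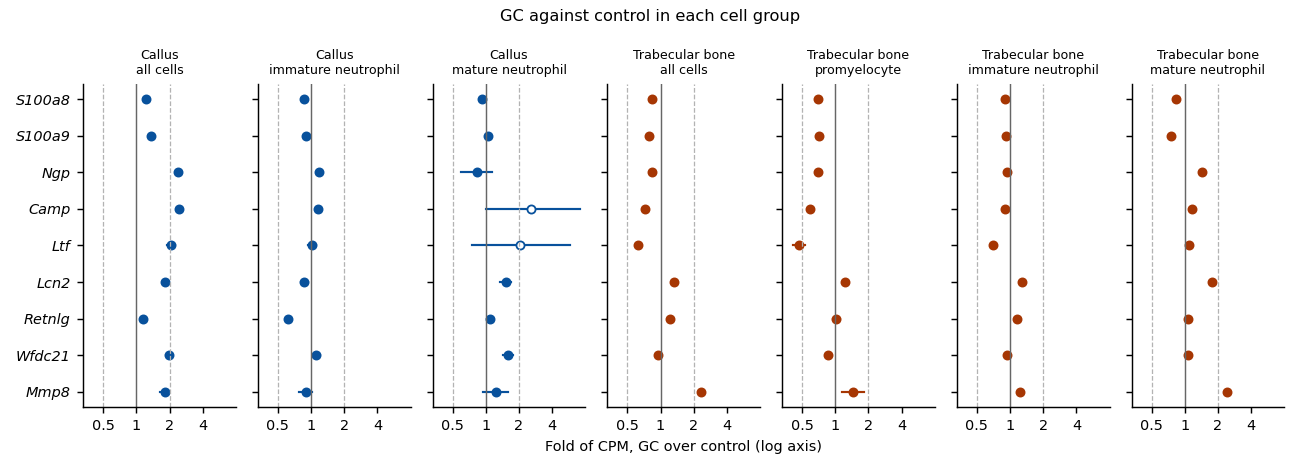
Fold of CPM in GC over control (log axis) for each gene in 7 cell groups, with callus in blue, trabecular bone in brown and horizontal lines for the counting interval. Dashed lines mark 2-fold and open points have fewer than 50 UMIs. Ngp, Camp and Ltf lie beyond 2-fold in all callus cells, Camp and Ltf also in mature callus neutrophils but as open points on 8 to 14 UMIs per library, and Mmp8 lies beyond 2-fold in all cells and mature neutrophils of trabecular bone.

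Since different clusters held most of the mature cells of each library, the levels by cluster stand beside these ratios. Mmp8 had 1338 CPM in control cells of cluster 0 and 3318 CPM in those of cluster 2, against 5721, 6384, 2892 and 6609 CPM in GC cells of clusters 3, 4, 5 and 6. In the few GC cells of cluster 0 (52) and cluster 2 (86) it had 3248 and 3233 CPM, which is 2.43-fold (2.26 to 2.60) and 0.974-fold (0.931 to 1.02) of control. Over both of these clusters together the log2 ratio of Mmp8 was 0.49 rather than 1.26, and S100a8 was no longer lower (0.046 rather than -0.26). Lcn2 had 4120 and 10127 CPM in control cells of clusters 0 and 2, and between 8806 and 17039 CPM in GC cells of clusters 3 to 6, and was higher in GC within both shared clusters (2.36-fold and 1.33-fold). Ngp, Camp and Ltf had no fixed direction in mature cells: Camp ranged from 129 CPM in cluster 3 to 9143 CPM in cluster 4, and the GC over control log2 ratio of Ngp was -1.01 in place of 0.51 with stages set by the mean level of the marker lists. Ngp kept its direction under 13, Camp under 10 and Ltf under 10 of 21 alternatives. S100a8 was lowest in cluster 5 (36412 CPM), which led with Ccrl2, Icam1, Cxcl3 and other genes of activated cells, and cluster 3 had 100824 CPM. Every other neutrophil cluster of trabecular bone had at least 133065 CPM of S100a8 in each library with 15 or more cells.

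**Figure D4:**
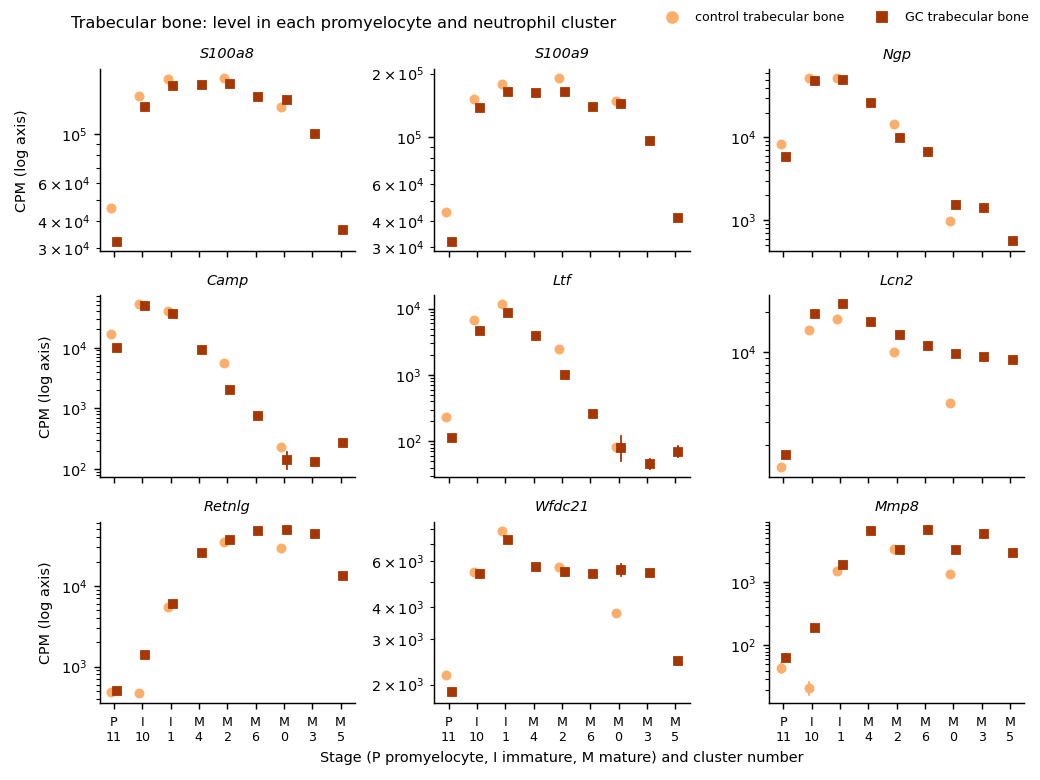
Level of each gene (CPM, log axis) in the promyelocyte (P), immature (I) and mature (M) clusters of trabecular bone, in that order of stage. Points are for control and GC cells of clusters with at least 15 cells of that library. Camp falls from 52847 CPM in control cells of cluster 10 to 227 CPM in cluster 0, while Retnlg rises from 466 to 29386 CPM, and Mmp8 of control cells stays at 3318 CPM or lower.

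The members differed more between the 2 tissues than between the 2 treatments, and so did all genes by the shares past 2-fold in neutrophils. Only the callus libraries are titled as fracture, and the study describes fracture and bone loss as separate models. Model and tissue therefore cannot be told apart. In the immature class, however, the tissues may hold cells of unlike stage. That of callus carried most of the mature markers, as given above, so stage and tissue cannot be told apart there. Of the 9 members in immature neutrophils, Ngp (0.390-fold), Camp (0.260-fold), Ltf (0.272-fold), Lcn2 (0.309-fold) and Wfdc21 (0.469-fold) were past 2-fold lower in control callus than in control trabecular bone, beside 18.1% of 6523 genes. Retnlg was 8.83-fold (8.63 to 9.02) higher, the 1 member past 2-fold in that direction, beside 19.9%. In the GC libraries, 4 members were past 2-fold lower in callus (Ngp, Camp, Ltf and Lcn2), beside 17.3% of 6228 genes. Retnlg was 4.75-fold (4.64 to 4.87) higher there, beside 22.1% of genes. S100a8 and S100a9 were between 0.510-fold and 0.590-fold in both pairs. In the control pair no member was past 2-fold higher with each library clustered alone, with all 4 clustered together or with no doublet removed.

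All 9 members were past 2-fold lower in mature neutrophils of control callus than of control trabecular bone, and 0 were higher, beside 9.82% of 6538 genes lower and 31.2% higher. S100a8 was 0.150-fold (0.149 to 0.151) and S100a9 0.137-fold (0.136 to 0.138), Retnlg 0.0680-fold, Wfdc21 0.0689-fold, Lcn2 0.0438-fold and Mmp8 0.0277-fold. Ngp was 0.00705-fold (0.00583 to 0.00846). Camp, with 8 UMIs in callus, was 0.00129-fold (0.000558 to 0.00255) and Ltf, also with 8, was 0.00291-fold (0.00126 to 0.00574). In the GC libraries all 9 were lower again, from 0.00288-fold for Camp to 0.191-fold for S100a9, beside 14.2% of 7238 genes lower and 24.3% higher. The median cell of this class had 1272.5 UMIs in control callus and 5097 in control trabecular bone. The mature class of trabecular bone was also uneven between clusters. Its control cells had 5577 CPM of Camp in cluster 2 and 227 CPM in cluster 0. Ngp had 14612 and 984 CPM there, Ltf 2490 and 82.9 CPM, and S100a8 181883 and 133065 CPM. Stage and tissue thus cannot be told apart in the mature class either. The empty droplets of control trabecular bone, which hold free RNA, took 26.99% of their UMIs from the members, against 0.184% in control callus. As an alternative, the lowest level among the larger classes other than granulocytes and monocytes was taken off each class as free RNA. The counts past 2-fold between the control tissues then stayed equal or within 1.5 times. The part of free RNA in the ratios themselves was not tested.

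Cells outside the granulocyte lineage carried the members at low levels that followed the library. S100a8 had 50.3 and 80.4 CPM in all other cells of control and GC callus, and 3459 and 2546 CPM in those of trabecular bone. Within a library, the counts of the members relative to S100a8 were compared with the same ratio in neutrophils and in empty droplets. Mmp8 differed in monocytes and macrophages: per S100a8 UMI they had 0.162 Mmp8 UMIs in control callus (56 to 346) and 0.229 in GC callus (70 to 306), against 0.013 in immature neutrophils and 0.0027 and 0.0036 in mature ones and 0.0049 in the empty droplets of control callus. In trabecular bone the ratio was 0.053 in control and 0.120 in GC monocytes and macrophages, against 0.015 and 0.043 in mature neutrophils and 0.0040 and 0.018 in empty droplets. Erythroid cells, which should lack Mmp8, had 0.014 and 0.056, so that in GC a ratio above that of neutrophils was not particular to monocytes and macrophages. Mmp8 had 25.6 and 48.7 CPM in these cells in callus. An unnamed callus cluster (7), which led with Lyz2, Hmox1 and Chil3 and carried 7 of 8 monocyte markers, had Mmp8 at 42.5 CPM in control and 116 CPM in GC, about as much as its S100a8 (55.9 and 49.7 CPM), and held 5.12% and 7.97% of the Mmp8 UMIs of its libraries. Lcn2 stood out in chondrocytes, with 0.165 UMIs per S100a8 UMI in control (357 to 2161) and 0.442 in GC (676 to 1528), against 0.057 in immature neutrophils of both callus libraries and 0.023 in the empty droplets of the control. Its level there was 5.71 CPM in control and 17.5 CPM in GC. The chondrocytes of the libraries lay in part in different clusters: clusters 2 and 24 held 699 and 343 of the 2753 GC cells and 6 and 0 of the 2479 control cells, at medians of 1904 and 4676 UMIs per cell, and their part was not tested. Camp per S100a8 UMI in chondrocytes was 0.047 in control and 0.259 in GC, against 0.132 and 0.175 in immature neutrophils. The empty droplets of control callus had 0.080.

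**Figure D5:**
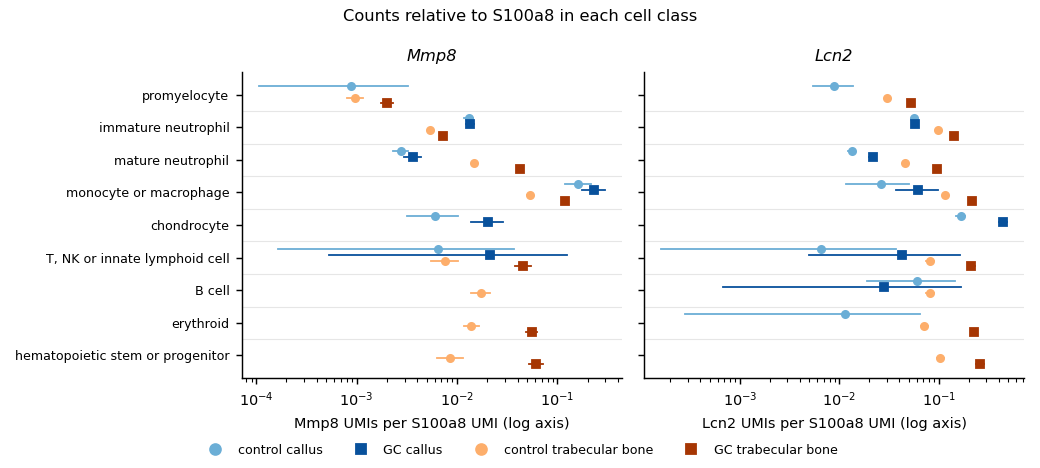
UMIs of Mmp8 (left) and Lcn2 (right) per S100a8 UMI (log axis) in 9 cell classes, with points for the 4 libraries and horizontal lines for counting intervals, and no point where the gene had 0 UMIs or the class under 15 cells. Mmp8 in monocytes and macrophages of callus (0.162 and 0.229) and Lcn2 in chondrocytes (0.165 and 0.442) lie to the right of the callus neutrophils.

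Some callus cells with members could not be named. Clusters left unnamed held 355 control and 722 GC cells. Cluster 25, with 2 control and 78 GC cells, mixed hemoglobin genes with chondrocyte and monocyte markers and had 2475 CPM of Ngp, which is 4.33% of the Ngp UMIs of GC callus. Basophils and mast cells of trabecular bone had 1262 CPM of S100a8 in 30 control and 14973 CPM in 42 GC cells, with Camp at 143 and 5540 CPM. Whether such cells are mixtures was not tested beyond the removal of 125 to 428 likely doublets per library.

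The other genes of the pathway were read from 8 fixed lists. Past 2-fold here means by the log2 ratio with 5 CPM added, so plain ratios of genes at low CPM can lie further out. Genes of azurophil granules did not pass 2-fold with GC in all cells, in either neutrophil stage or in trabecular bone promyelocytes, and all 8 were over the minimum in each trabecular bone group. In callus neutrophils only 2 of 8 in immature and 3 of 8 in mature cells were over the minimum, so the others could not be counted there. Gusb, at 10.1 and 24.7 CPM in mature callus neutrophils, had a plain ratio of 2.46-fold (1.39 to 4.44). Lyz2 (lysozyme) went from 4689 to 3251 CPM in mature trabecular bone neutrophils (0.693-fold, 0.684 to 0.703) and was 0.647-fold in promyelocytes. Of 23 other genes of specific granules, gelatinase granules and secretory vesicles, 3 were past 2-fold higher and 0 lower in mature trabecular bone neutrophils. Chil3, a chitinase-like lectin that was also a naming marker, went from 251 to 7452 CPM (29.7-fold, 28.5 to 31.0), and Qsox1 (a sulfhydryl oxidase) from 65.0 to 167 CPM (2.56-fold, 2.34 to 2.81). The other was Orm1, an acute-phase carrier protein, at 1.59 and 38.2 CPM. Chil3, Orm1 and Lyz2 are naming markers of the immature list, and some clusters of GC cells named mature carried nearly all of that list. The part of this naming in their ratios was not tested. In immature trabecular bone neutrophils 2 of 23 were past 2-fold higher, Chil3 (6443 to 21142 CPM) and Orm1 (179 to 466 CPM). In promyelocytes Chil3 (1243 to 6308 CPM) and Orm1 (54.0 to 132 CPM) were past 2-fold higher and Slpi, a protease inhibitor, lower (751 to 255 CPM). In all callus cells Chil3 went from 25.2 to 79.0 CPM, the 1 gene of 22 past 2-fold. Mmp9, the gelatinase, was 1.39-fold (1.35 to 1.44) there, but 0.679-fold (0.565 to 0.816) in immature and 0.877-fold (0.774 to 0.993) in mature callus neutrophils. Immature and mature neutrophils held 227 and 407 of the 7193 Mmp9 UMIs of GC callus, and 253 and 684 of 7472 in control. For Chil3 they held 839 and 42 of 4363 UMIs in GC, and 397 and 14 of 2011 in control. In immature callus neutrophils 0 of 20 genes passed 2-fold, and Olfm4, a marker of a neutrophil subset, was 0.514-fold (0.356 to 0.738). In mature callus neutrophils Chil3, on 14 and 42 UMIs, was the 1 of 16 past 2-fold.

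Of 12 regulators of granulocyte formation, none was past 2-fold in any trabecular bone group with 5 CPM added. Csf3 over all trabecular bone cells, at 0.646 and 2.90 CPM (22 and 109 UMIs), had a plain ratio of 4.49-fold (2.82 to 7.46). Cebpb, the C/EBP factor of stress granulopoiesis, was past 2-fold lower in GC in both callus neutrophil stages, from 2096 to 664 CPM in immature (0.317-fold, 0.277 to 0.362) and from 4412 to 1819 CPM in mature cells (0.412-fold, 0.395 to 0.431). Stat3, which relays G-CSF signals, was 0.549-fold and 0.561-fold in the same cells, and Csf3r, the G-CSF receptor, was 0.723-fold (0.699 to 0.749) in mature trabecular bone neutrophils. Csf3r is a naming marker of the mature list, and the part of naming in its ratio was not tested. Among 12 receptors, partners and inhibitors of the member proteins, 7 of the 8 over the minimum were lower in mature callus neutrophils, with a median log2 ratio of -0.66 beside 0.0011 over all genes. These 8 include Timp1 (64.6 to 36.7 CPM) and Timp3 (103 to 57.9 CPM), metalloproteinase inhibitors that had 578 and 1192 CPM over all control callus cells. Col2a1, which neutrophils should lack, went from 2757 to 1156 CPM in the same neutrophils, and its part was not tested. Tlr4, a receptor of calprotectin, went from 74.2 to 42.4 CPM and Fpr2, a receptor of the cathelicidin peptide, from 294 to 162 CPM. In immature callus neutrophils Cd14, the Tlr4 co-receptor, was the 1 gene past 2-fold, from 833 to 344 CPM (0.412-fold, 0.339 to 0.501). In trabecular bone none of this list was past 2-fold.

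Of the 11 other S100 genes, none was past 2-fold with GC in any neutrophil stage or in all cells of either tissue with 5 CPM added. S100a10 in mature callus neutrophils went from 82.4 to 39.5 CPM, a plain ratio of 0.480-fold (0.348 to 0.652). In promyelocytes S100a4, at 36.1 and 13.9 CPM, was past 2-fold lower. S100a11 was 0.754-fold and 0.739-fold in immature and mature callus neutrophils and 0.844-fold in mature trabecular bone neutrophils, and S100a13 was 1.58-fold (1.46 to 1.71) in the latter. Glucocorticoid-responsive genes served as a check of the labels. In all trabecular bone cells 8 of 8 were higher in GC and 4 past 2-fold, namely Fkbp5 (16.1 to 59.8 CPM), Tsc22d3 (75.5 to 166 CPM), Klf9 (42.2 to 92.2 CPM) and Zbtb16 (1.70 to 12.0 CPM). Zbtb16, S100a4, Csf3, Gusb, Ddit4 (below) and 2 values above on few counts, Orm1 and Chil3 in mature cells of trabecular bone and callus, were below the level set for naming and are given after their values were seen. In mature trabecular bone neutrophils 4 of 8 were past 2-fold higher, among them Klf9 at 9.14-fold (7.56 to 11.1) and Fkbp5 at 7.83-fold (6.47 to 9.56). In all callus cells 6 of 8 were higher and 0 past 2-fold with 5 CPM added. The 2 lower were Per1 (0.749-fold, 0.711 to 0.789) and Ddit4, from 48.3 to 24.1 CPM, a plain ratio of 0.4996-fold (0.469 to 0.532). In mature callus neutrophils Klf9 was past 2-fold higher (2.23-fold) and Dusp1 past 2-fold lower (0.419-fold). In immature callus neutrophils Per1, a clock gene, was past 2-fold lower (155 to 50.3 CPM). Cell-cycle genes were lower in 8 of 8 cases over all trabecular bone cells (Mki67 0.688-fold, 0.666 to 0.710), which pool all classes. In trabecular bone promyelocytes 5 of 8 were lower. In immature trabecular bone neutrophils 6 of 8 were higher, with a median log2 ratio of 0.17 beside 0.029 over all genes. In immature callus neutrophils 2 of 2 over the minimum were past 2-fold higher.

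Over 47 class and library groups with at least 15 cells, the 3 genes closest in level to each member were members, apart from Mmp8. Correlations between members went down to 0.814 (Camp and Mmp8). How many other genes came as near was not counted. Among 8281 genes, the 3 closest to S100a8 were S100a9 (Pearson r 0.998), Wfdc21 (0.983) and Lcn2 (0.955). Ngp was closest to Camp (0.986), and Ltf to Ngp (0.956). Lcn2 was closest to Wfdc21 (0.964) and Retnlg to S100a9 (0.943). Mmp8 was the only member with genes other than members among its 3 closest, namely Ifitm6 (0.934) and Cd177 (0.931) beside Retnlg (0.934). These correlations describe groups that share libraries, depth and free RNA, and they are not tests.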

How the data were processed

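scRNA-Seq libraries of 4 groups, 1 per group, were analysed from the deposited matrices of UMI counts per gene and barcode, which the authors made with Cell Ranger (5.0.1 per the submitters' processing notes, 4 or 4.0.0 per the file headers) on mm10. No count was changed. Genes were named from the files, positions come from the GENCODE genes of the GRCm38.p6 reference, and promoters from RefSeq. The 9 genes and all lists were chosen with earlier results of these data known.

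Barcodes were called as cells above 10% of the 99th percentile of the top 3000 barcodes, or with at least 500 UMIs and a profile differing from barcodes ranked 45001 to 90000 (10000 simulations, FDR 0.01). The GC callus matrix held called barcodes only and skipped this step. Cells needed at least 200 genes and at most 10% mitochondrial UMIs. Likely doublets were removed at 0.8% per 1000 cells, 125 to 428 per library. Cells of both libraries from 1 tissue entered a joint clustering with no batch term and with the 9 genes left out (2000 variable genes, 30 components, 15 neighbors, Leiden resolution 1), and clusters carrying markers of several classes were divided again. Classes were named from 210 markers of 22 classes. A class needed at least 3 markers that were 2-fold over other clusters in 10% of cells, and a neutrophil cluster was immature or mature by the list with more markers among its 10 leading genes or, on a tie, by the mean level of each list. Classes of at least 15 cells were compared.

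UMIs were summed per class and library and scaled to counts per 1000000 (CPM), with exact Poisson intervals, and ratios have exact conditional intervals. PCR and library differences are not covered by these intervals, and a count of 0 allows up to 3. Genes past 2-fold were counted on log2 ratios with 5 CPM added, among genes with at least 50 UMIs over both libraries. The named genes were all 9, the 4 of each of 8 lists (87 genes in all) with the largest absolute log2 ratio among genes of at least 50 CPM, and the 3 most correlated with each of the 9. Cell calling, fold changes and their intervals were tested on simulated data, and clustering was not. The simulated empty droplets had the profile of erythroid cells, whereas the empty droplets of trabecular bone were rich in the 9 genes. Simulated counts were Poisson, so the intervals were checked for counting error only. Python 3.11.15, scipy 1.17.1, scikit-learn 1.9.0, igraph 0.11.9 and leidenalg 0.10.2 were used. The effects of 20 alternatives, and of 3 chosen after seeing the data, are given in the closing section.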

Additional observations from a re-analysis of the deposited data

Results flagged for a closer look

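The sign of the GC over control ratio differed between the tissues for 6 of the 9 genes over all cells, for 5 in immature and for 1 in mature neutrophils, counting only genes whose counting intervals lay on opposite sides of no change. With 1 library per group these differences were not tested. The share of all genes that meet this rule was not counted, and the intervals of abundant genes are narrow. The counts therefore cannot be read as particular to the 9 genes. Over all cells, the log2 ratio in callus minus that in trabecular bone was 0.57 for S100a8, 0.795 for S100a9, 1.46 for Ngp, 1.69 for Camp, 1.51 for Ltf and 0.94 for Wfdc21, each higher with GC in callus and lower in trabecular bone. With cells thinned to 1000 UMIs, S100a8 (-0.33) and S100a9 (-0.17) were lower in callus too, and Wfdc21 was higher in trabecular bone (0.050). In immature neutrophils the difference between tissues was 0.33 for Ngp, 0.34 for Camp and 0.26 for Wfdc21, again higher in callus and lower in trabecular bone. It was -0.57 for Lcn2 and -0.89 for Retnlg, which were lower with GC in callus and higher in trabecular bone. Retnlg in immature trabecular bone neutrophils kept that direction under 17 of 20 alternatives and reached -0.51 under another, and Lcn2 in immature callus neutrophils kept its own under 17 of 19. In mature neutrophils S100a9 differed by 0.48, with 1.04-fold in callus and 0.744-fold in trabecular bone.

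Barcodes that were not called as cells also held the 9 genes. In empty droplets of trabecular bone they took 26.99% of the UMIs with control and 13.02% with GC, and in those of the control callus 0.184%. No empty droplets are listed for GC callus, so the callus libraries could not be compared in this way.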

How the results depend on the processing

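No paired analysis was possible because each group has 1 library, and no library could be left out. Of 370 recomputed counts of genes past 2-fold or highest in immature neutrophils, 336 were equal to the reported count or within 1.5 times of it. Of 1098 recomputed member ratios, 1028 kept their sign, but 494 fell outside the counting interval of the reported ratio. Over all callus cells the count of genes higher in GC was 9 with the UMI cutoff alone (which by construction applied to the control library only), 0 with mean per-cell CPM, 0 with cells thinned to 1000 UMIs and 6 at 1.5-fold, against 2. In callus at 1.5-fold, 1 was lower in immature and 2 higher in mature neutrophils, and 1 was higher in mature ones with all 4 libraries clustered together, against 0. In all trabecular bone cells 1 was lower at 1.5-fold, against 0. In immature trabecular bone neutrophils 1 was higher with the 9 genes kept in clustering, and 2 with the UMI cutoff alone, every barcode of at least 500 UMIs, at least 500 genes, at most 5% mitochondrial UMIs, resolution 2 or stages by mean marker level, against 0. In mature ones the count lower, reported as 0, was 1 with the genes kept, 3 with stages by mean marker level and 2 under each of the other 5 of these. The count higher there, reported as 1, was 3 with no doublet removed, with resolution 0.5 and with all 4 libraries together, 5 with each library alone, 2 at 1.5-fold, and 0 with median-ratio scaling and in clusters holding both libraries. For immature neutrophils of control callus against trabecular bone, the count lower was 3 at resolution 0.5 and 8 with each library alone, against 5. The count higher was 0 with no doublet removed, each library alone or all 4 together, against 1. The causes were not tested.

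Mmp8 was past 2-fold over all trabecular bone cells under all 21 alternatives run. Depth limits Camp and Ltf in mature callus neutrophils, which rest on 8 to 14 UMIs per library. Intervals cover counting error alone, and treatment, mouse and library cannot be told apart.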
